A study of Arabidopsis thaliana with 18 samples.

Results

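Cycloheximide (CHX), an inhibitor of protein synthesis, was given to Arabidopsis thaliana seedlings together with dexamethasone (DEX), and the transcripts of their root tips were compared with those of root tips given DEX alone. The comparison takes 6 of the series' 18 arrays by their labelled treatment, 3 labelled root DEX+CHX and 3 labelled root DEX, and covers all 38408 features on them. Seedlings of the Col-0 ecotype, 4 days old, were moved to MS medium with the compounds for 1 h before the root tips were harvested. Every plant compared, treated or not, carried pRPS5A-TMO5-GR. This construct expresses the basic helix-loop-helix transcription factor TMO5 fused to the glucocorticoid receptor from the RPS5A promoter, which is known to act in dividing cells, so that TMO5 is not restricted to its own domain. DEX releases such a fusion into the nucleus, and it was present in both groups. The same treatment without DEX was available on 6 other arrays, 3 of root tips on medium alone (root MS) and 3 with cycloheximide (root CHX). The remaining 6 arrays are of sorted cells of another line and take no part. No label gives the doses, the number of seedlings per sample or whether repeats were separate cultures, so p-values measure the spread between these samples only. TMO5 itself was not analysed here.

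Cycloheximide stalls ribosomes in the cytosol and does not act on the ribosomes of plastids. In studies of inducible factors it is given so that a target that still responds does not need a newly made protein. Its own effect on transcripts is well known in plants: messages that are normally kept low by short-lived repressors or by rapid decay, many of them early response genes of auxin and of defence, build up when protein synthesis stops. Whole root tips were measured, and in such bulk samples fewer cells of a type and less RNA per cell cannot be told apart.

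Levels are the deposited log2 signals, and a change is the difference of 2 group means on that scale, so that 1 is a doubling. Calls were made with limma's moderated test over the 12 root arrays, with Benjamini-Hochberg adjustment over all features and an adjusted p under 0.05. Of the features, 16722 are named for exactly 1 gene and stand for 16548 genes, each taken by its brightest feature. Arrays correlated with r from 0.985 to 0.988 within root DEX and from 0.988 to 0.991 within root DEX+CHX. Cycloheximide set the root arrays apart: the leading principal component held 70.1% of their variance, with the arrays given cycloheximide at 56.5 to 69.3 and the others at -64.7 to -58.7. The median signal of an array was 4.82 to 4.87 in root DEX and 4.61 to 4.65 in root DEX+CHX. Setting these medians equal adds 0.22 to every log2 change below.

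Root tip markers were present in both groups. EXPA7, an expansin of root hair cells, lay at 8.66 ± 0.41 in root DEX and 8.34 ± 0.25 in root DEX+CHX (log2 signal, mean ± SD, n = 3 each). JKD, a zinc finger factor of the ground tissue, lay at 9.01 ± 0.19 and 8.89 ± 0.09. None of the 4 root cell type markers measured, with PHV and OPS as the others, passed the test, although 2 were lower without root DEX replicate 3. Of 9 nuclear photosynthesis genes typical of shoots 1 passed, LHB1B2 with a change of -0.38, and it did not pass with equal array medians, with all 18 arrays in the fit or without replicate 2 of either group.

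Among the named genes, increases under cycloheximide were far larger than decreases. Of 16548 genes, 4808 (29.1%) were called, 2519 (15.2%) higher in root DEX+CHX and 2289 (13.8%) lower. Among these, 966 (5.84%) were at least 2-fold higher and 78 (0.471%) at least 2-fold lower. At 4-fold the counts were 357 and 7, and at 16-fold 72 and 0. The median change of the genes called higher was 0.79 and of those called lower -0.46, while the median over all genes was -0.05. The groups of 3 arrays did not overlap for 6999 genes (42.3%). The balance of calls depends on scaling: with equal array medians 4079 genes were higher and 678 lower, and with quantile normalization over the root arrays 3741 and 1752. At 2-fold or more increases outnumbered decreases under both, 1285 to 46 at equal medians and 1143 to 66 with quantile normalization.

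Over all 38408 features, unnamed ones included, the balance was the other way. There 12935 (33.7%) were called, 4460 (11.6%) higher and 8475 (22.1%) lower, of which 1799 (4.68%) and 2829 (7.37%) changed at least 2-fold. The 20927 features without a gene name here held 5954 of the lower calls and 2740 of those at 2-fold. Many features carry identical values on all arrays: counted once each, 1792 were at least 2-fold higher and 840 at least 2-fold lower. With equal array medians 7212 features were higher and 4213 lower, so that higher calls made up 63.1% in place of 34.5%. Quantile normalization over the root arrays gave 6432 and 6649, a higher share of 49.2%.

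The strongest increases, all but that of AT2G20142, took transcripts from below the root DEX array medians to far above the medians with cycloheximide. AT3G29000 had log2 signals of 2.55, 2.93 and 2.91 on the root DEX arrays and 9.67, 9.46 and 9.76 on the root DEX+CHX arrays, a change of 6.83 (SE 0.14, adjusted p = 1.27e-09 with limma), or 114-fold. AT1G30190 lay at 3.03, 2.98 and 3.33 with DEX and at 9.81, 9.82 and 9.90 with both compounds, a change of 6.73. Each group was tight, and more than 6 log2 units parted them. AT5G22520, AT2G32200, AT1G35210, AT5G11140, AT1G07135, AT5G64870, AT1G51913, AT1G72920 and AT1G06135 followed with changes from 6.50 down to 6.02, and AT5G40000, AT5G41750, AT1G59865 and AT2G20142 completed the 15 largest with 5.68, 5.57, 5.57 and 5.55. These 15 carry only a locus number in the annotation used here, and all 15 had root DEX signals between 2.22 and 5.43 and root DEX+CHX signals between 8.20 and 10.98. Since the files hold no detection calls, the lowest of these starting signals may be background, and the folds from them may then be too small.

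The largest increases of genes with a symbol were those of WRKY41, CML37, GH3.3, GRX480, EXLA3 and FAMT, of which GH3.3 and EXLA3 are described with their families below. WRKY41, a WRKY factor of the defence response, had signals of 2.84, 3.49 and 3.37 in root DEX and of 9.35, 8.65 and 7.50 in root DEX+CHX, a change of 5.27 (SE 0.51, adjusted p = 2.81e-05). Its 3 arrays with cycloheximide were spread widely, replicate 3 being the lowest, but all lay above those with DEX alone. CML37, a calmodulin-like calcium sensor induced by wounding, went from 2.82, 3.15 and 3.40 to 8.31, 8.21 and 8.42, a change of 5.19. GRX480, a glutaredoxin that binds TGA factors in the cross-talk of salicylic acid and jasmonate, went from 4.05, 3.88 and 3.29 to 8.44, 8.55 and 8.43, a change of 4.73. In both the arrays with cycloheximide agreed closely. DLAH changed by 4.22, AR781 by 4.30 and RING1, a RING-type E3 ligase, by 3.79. FAMT, a methyltransferase, changed by 4.65, but its arrays were uneven: root DEX gave 4.62, 3.16 and 2.42, and root DEX+CHX 9.19, 8.38 and 6.57. The symbol-bearing genes GRX480, DLAH, AR781, RING1 and FAMT were picked with their values in view, for being among the largest changes of genes with a symbol.

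**Figure D1:**
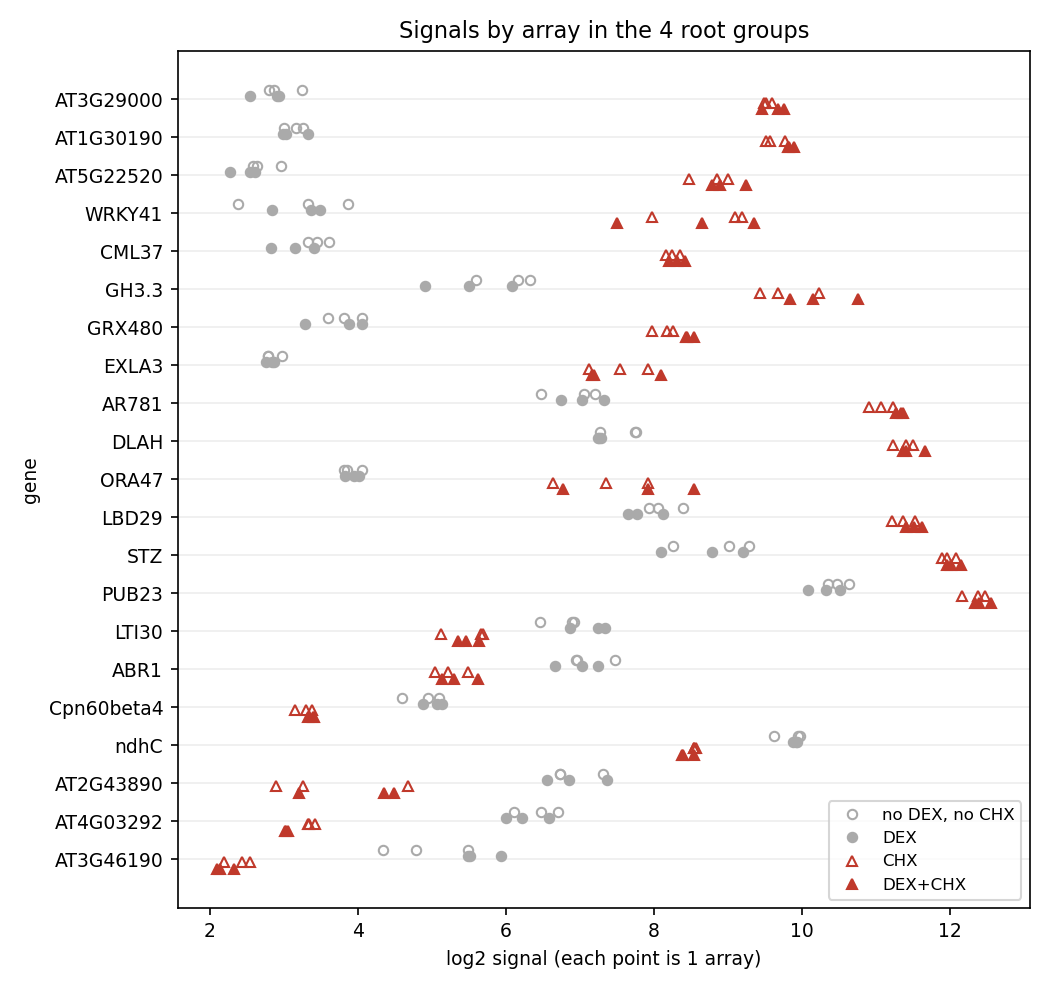
Log2 signals (horizontal axis) of 21 genes (vertical axis), each point 1 array: root DEX as filled grey circles, root DEX+CHX as filled red triangles, and root MS and root CHX as the open symbols. In each gene the filled triangles lie all to one side of the filled circles, by 6.83 on average for AT3G29000 and by -3.46 for AT3G46190. The open symbols show the same genes without DEX, and for AT3G46190 root MS averaged 4.87 against 5.64 in root DEX.

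The gene lists that follow can be read against all genes, of which 15.2% were higher and 13.8% lower with a median change of -0.05. Some lists were added after the values were seen, so that their counts are a description only. These are the CLE, ROTUNDIFOLIA-like, GLR, beta-tubulin, TRM, IQD, histone H2B and aldehyde dehydrogenase lists. The carboxypeptidase-like, SWEET, LCR, SCRL, cold and dehydration, and MADS box lists were added likewise. Among transcription factors, every WRKY and zinc finger factor past the test was higher. Of 7 WRKY genes 5 rose and none fell (median 0.74), among them WRKY22 by 1.21, WRKY6 by 0.74 and WRKY42 by 0.89. The call of WRKY42 was lost without root DEX replicate 1, root DEX+CHX replicate 2 or root DEX+CHX replicate 3. STZ, a zinc finger repressor of stress responses, had signals of 9.20, 8.79 and 8.10 in root DEX and 12.15, 11.97 and 12.01 in root DEX+CHX, a change of 3.35 (SE 0.29, adjusted p = 1.11e-05). Its relative ZAT7 rose by 3.25 from a far lower starting signal. Both measured members of that list thus rose, and the groups did not overlap for either.

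The ERF, DREB and RAV list moved in both directions. ORA47, an ERF factor that switches on jasmonate synthesis, had signals of 3.95, 3.82 and 4.01 in root DEX and 8.54, 7.92 and 6.78 in root DEX+CHX, a change of 3.82 (SE 0.41, adjusted p = 5.12e-05). PUCHI, which acts in lateral root founder cells, rose by 1.20 and DREB2C, a heat and dehydration factor, by 1.16. ABR1, an ERF that represses abscisic acid responses, fell from 7.24, 7.02 and 6.67 to 5.63, 5.14 and 5.30, a change of -1.62 (SE 0.20, adjusted p = 0.00016). In all, 4 of the 6 measured members rose and 2 fell (median 0.97), and 1 fell with equal array medians or without root DEX replicate 3, root DEX+CHX replicate 1 or root DEX+CHX replicate 2. BHLH92, a stress-induced factor of the bHLH class to which TMO5 also belongs, rose by 3.62, again with its replicate 3 lowest at 4.61 against 6.59 and 5.56. Of 8 bHLH genes 2 rose and 1, bHLH115, a factor of the iron response, fell by 0.56 on the log2 scale, with a list median of 0.07. With equal array medians 3 bHLH genes rose, and 4 with quantile normalization.

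In the bZIP family 9 of 17 genes rose and 1 fell, with a median of 0.39. BZIP60, which responds to unfolded protein in the endoplasmic reticulum, lay at 6.86, 7.07 and 6.70 in root DEX and at 9.21, 9.03 and 9.11 in root DEX+CHX, a change of 2.24 (SE 0.18, adjusted p = 7.04e-06). The membrane-bound factors BZIP17 and BZIP28, which act in the same response and were named after their values were seen, rose by 0.49 and 0.39. BZIP34 rose by 1.21 and BZIP24, a factor of salt stress, by 0.89. The member that fell was bZIP19, a sensor of zinc deficiency, with a change of -0.80.

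Several early auxin genes rose strongly. GH3.3, an enzyme that joins auxin to amino acids, had signals of 5.50, 4.90 and 6.08 in root DEX and of 9.84, 10.15 and 10.76 in root DEX+CHX, a change of 4.76 (SE 0.34, adjusted p = 2.9e-06). GH3.1 rose by 4.00, WES1, another GH3 enzyme, by 1.23 and GH3.17 by 0.70. In all 4 of the 6 measured GH3 genes rose, with a list median of 0.97, and 5 rose under either of the other scalings. LBD29, a factor of lateral root initiation downstream of auxin, had signals of 8.12, 7.65 and 7.77 and then of 11.52, 11.41 and 11.62, a change of 3.67 (SE 0.15, adjusted p = 5.62e-08). Its close relative LBD16 rose by 2.39, while LOB, the founding member of the family, had a change of 0.08 (95% interval -0.09 to 0.24) that passed under either of the other scalings, by which all 3 LBD genes rose. Of 8 Aux/IAA repressor genes IAA29 rose by 2.06 and IAA18 by 0.94, with a list median of 0.31. There 4 of the 8 rose both with equal array medians and with quantile normalization. RR16, a type-A response regulator of cytokinin signalling, had a change of 1.46, and its call was lost without root DEX+CHX replicate 1, root DEX+CHX replicate 2 or root DEX replicate 3. Its arrays with cycloheximide read 4.78, 5.22 and 3.68.

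Calcium sensors and E3 ligases of the U-box class rose almost as whole lists. Of 6 calmodulin-like genes 5 rose, CML37 as above, CML23 by 3.79, CML38 by 3.38, CML41 by 1.72 and CML43 by 0.37, and the list median was 2.55. Of 10 U-box genes 9 rose and none fell, with a median of 1.41 against -0.05 over all genes. PUB23, which dampens immune signalling by marking proteins for degradation, lay at 10.52, 10.33 and 10.09 in root DEX and at 12.56, 12.34 and 12.39 in root DEX+CHX, a change of 2.12 (SE 0.13, adjusted p = 1.05e-06). PUB24, its partner in that role, rose by 2.22 and PUB22, named after its value was seen, by 1.39. PUB54 rose by 2.67 and PUB19, linked to drought, by 1.91. Among 6 RING-H2 ligases ATL43 rose by 1.22 and ATL5 by 1.21, and the other 4 did not pass (median 0.10).

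Autophagy genes were lower: of 10 measured, 9 of the ATG8 class of ubiquitin-like proteins and ATG3, none rose and 8 fell, with a median of -0.37. ATG8D lay at 6.41, 6.55 and 6.35 in root DEX and at 5.66, 5.80 and 5.75 in root DEX+CHX, a change of -0.70 (SE 0.10, adjusted p = 0.000517), and APG8A had a change of -0.72. The groups stood clear of each other in both genes. With equal array medians 4 autophagy genes fell, the median was -0.15, and the least changed member lay above 0. Probes of near-identical genes can share signal, which was not tested.

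Several small peptide genes rose, among them a pair of the procambium. CLE peptides signal between cells through receptor kinases, and CLE41 and CLE44 encode the factor that keeps procambium cells undifferentiated. CLE44 lay at 5.49, 4.38 and 5.11 in root DEX and at 7.07, 6.48 and 6.86 in root DEX+CHX, a change of 1.81 (SE 0.30, adjusted p = 0.00102), and CLE41 rose by 1.23 (adjusted p = 0.000375). CLE25 rose by 1.87 and CLE14, which shortens the root meristem when supplied in excess, by 1.45. In all 8 of 16 CLE genes rose and none fell (median 0.44), and 12 rose with quantile normalization. The wider list of CLE and other small peptides, written at first, had 10 of 37 higher and 1 lower (median 0.12). IDL4, a peptide related to the abscission signal IDA, rose by 2.62, and RTFL7, of the ROTUNDIFOLIA-like peptides, by 2.53. Of 5 ROTUNDIFOLIA-like genes measured 2 rose and none fell (median 0.28).

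EXLA3, an expansin-like gene, went from 2.86, 2.76 and 2.84 in root DEX to 8.10, 7.17 and 7.20 in root DEX+CHX, a change of 4.67 (SE 0.25, adjusted p = 3.57e-07). Of 23 expansins EXLA1 and EXPA15 also rose, by 1.19 and 1.18, and 2 fell, neither of them with equal array medians. The list median was -0.20, and 0.02 with equal array medians. Xyloglucan hydrolases cut and rejoin wall polysaccharide, and of 9 measured 4 rose and 1 fell, with a median of -0.09 that was 0.13 with equal array medians. XTH18 rose by 1.83, XTH19 by 1.38, XTH29 by 0.56 and XTH33 by 1.14, the last not without root DEX+CHX replicate 1 or root DEX replicate 2. The fall was that of XTH21, named after its value was seen, by 0.33 on the log2 scale. No XTH gene fell with equal array medians, with only the 6 arrays compared or all 18 in the fit, without root DEX+CHX replicate 1 or without root DEX replicate 2 or 3. GLR2.8, a glutamate receptor-like channel, rose by 3.05, and GLR3.5 fell from 7.46, 7.01 and 7.50 to 6.26, 6.44 and 6.47, a change of -0.93 (SE 0.14, adjusted p = 0.000626). Of 10 such channel genes measured 4 rose and 1 fell, with a median of 0.0013 that was 0.22 with equal array medians.

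Tubulin genes were lower. All 5 beta-tubulin genes measured fell, with a median of -0.66: TUB9 lay at 9.36, 9.22 and 9.16 in root DEX and at 8.55, 8.55 and 8.65 in root DEX+CHX, a change of -0.66 (SE 0.10, adjusted p = 0.0007), and TUB5 had a change of -0.78. The alpha-tubulin TUA6 fell by 0.47 and KINESIN-13A by 0.47 on the log2 scale. Of the 10 genes in the list of kinesins and microtubule proteins, TUB5 among them, 7 fell and none rose (median -0.50). With equal array medians 4 of these 10 fell. Only 3 of the 5 beta-tubulins fell with equal array medians, without root DEX replicate 1 or without root DEX+CHX replicate 2. Of 14 genes of the TRM class, which recruit microtubule-organising proteins, 7 rose and none fell (median 0.24), TRM25 by 1.55 and TRM20 by 1.05. IQD proteins bind calmodulin and microtubules. Of 17 measured, 4 rose, among them IQD22 from 7.31, 7.06 and 7.32 to 9.49, 9.32 and 9.16, and 5 fell by at most 0.51 on the log2 scale, with a median of 0.01. Those falls numbered 1 with equal array medians, and 3 on omitting replicate 2 or 3 of root DEX or replicate 3 of root DEX+CHX.

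Histone genes were slightly higher. Of 4 histone H2B genes HTB2 rose by 0.83, HTB1 by 0.77 and HTB11 by 0.46, and HIS1-3, a linker histone induced by drought, rose by 0.87. The call of HTB11 was lost without root DEX+CHX replicate 1 or root DEX replicate 3.

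Enzyme families of detoxification and secondary metabolism are set here against the 15.2% of all genes that rose and the 13.8% that fell. Of 51 glucosyltransferases 6 rose and 6 fell, shares near those of all genes, with UGT76D1 up by 2.65 and UGT71B6, which conjugates abscisic acid, up by 1.81. UGT76B1, which glucosylates the immune signals isoleucic acid and salicylic acid, fell from 10.40, 10.52 and 10.44 to 9.26, 9.33 and 9.50, a change of -1.09 (SE 0.09, adjusted p = 1.22e-05). The lower count was 3 without root DEX replicate 1 or without any 1 of the root DEX+CHX arrays, and the balance turned to 7 higher and 2 lower with equal array medians and to 10 and 5 with quantile normalization. No cytochrome P450 gene rose and 6 of 26 fell, none by more than 0.70 on the log2 scale, but with equal array medians 3 rose and none fell, and the median turned from -0.16 to 0.06. Leaving out any 1 array gave 1 to 4 falls among the cytochrome P450 genes, the fewest without root DEX+CHX replicate 1. Without root DEX+CHX replicate 3 1 of them rose. Of 8 aldehyde dehydrogenases none rose and 5 fell (median -0.37), ALDH7B4, a stress-induced enzyme, by 0.88 and ALDH6B2 by 0.75 on the log2 scale, and 3 fell with equal array medians, while 1 member rose with quantile normalization. Of 15 glutathione S-transferases none rose and 5 fell (median -0.17), GSTU27 by 0.94 on the log2 scale, with 3 falls on omitting replicate 1 of root DEX or replicate 3 of root DEX+CHX and 1 with equal array medians. Serine carboxypeptidase-like genes had 2 of 32 higher and 8 lower (median -0.21), of which scpl50 fell by 1.09 on the log2 scale, and the falls came to 3 on omitting any 1 root DEX array or replicate 2 of root DEX+CHX and to 4 on omitting its replicate 3. They came to 2 with equal array medians and 3 with quantile normalization, and of the 2 increases 1 passed on omitting any 1 root DEX array or replicate 2 of root DEX+CHX. Of 14 SWEET sugar transporters none rose and 2 fell (median -0.03), SWEET17 by 0.87 and SWEET2 by 0.65 on the log2 scale, while 1 rose with quantile normalization or without root DEX+CHX replicate 3. The defensin-like LCR and SCRL genes, known mainly from reproductive tissue, had 1 of 63 and 0 of 12 higher, and 3 and 0 lower. The balance of the LCR genes turned with scaling, to 5 higher and 0 lower with equal array medians and to 6 and 1 with quantile normalization, and 1 fell on omitting replicate 1 or 2 of root DEX or replicate 3 of root DEX+CHX. The medians of the glutathione S-transferase, carboxypeptidase-like, SWEET and LCR lists lay above 0 with equal array medians.

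Genes of cold and dehydration tolerance were lower. LTI30, a dehydrin, had signals of 6.87, 7.33 and 7.25 in root DEX and of 5.35, 5.46 and 5.63 in root DEX+CHX, a change of -1.67 (SE 0.19, adjusted p = 8.88e-05). COR47, also a dehydrin, fell by 0.61 and DI21, a gene of drought and abscisic acid, by 0.76 on the log2 scale. This list was added after the values were seen. None of its 8 genes rose and 6 fell, where 13.8% of all genes fell. With equal array medians, without root DEX+CHX replicate 2 or without root DEX+CHX replicate 3, 3 fell.

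**Figure D2:**
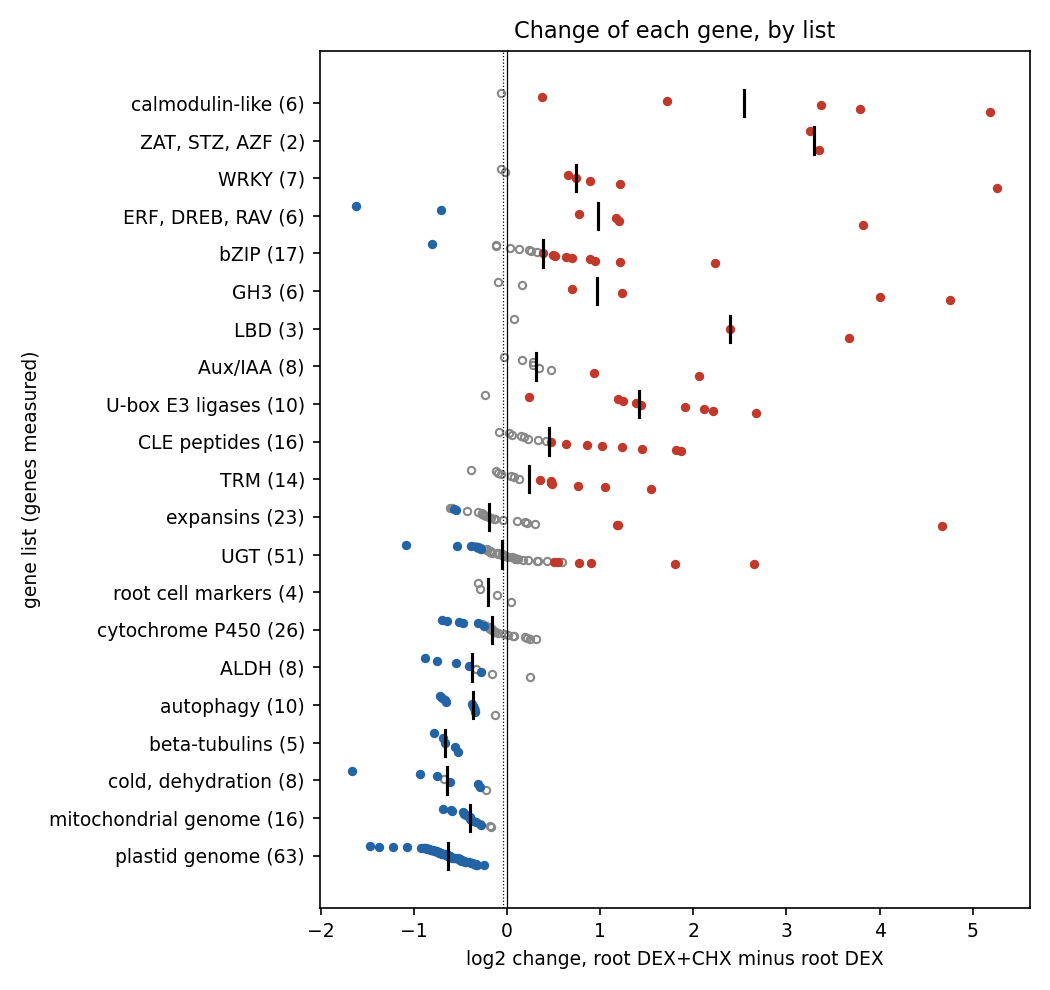
Log2 change in root DEX+CHX against root DEX (horizontal axis) of each gene in 21 lists (vertical axis, number measured in brackets), red where higher and blue where lower past the test, open where not past it. Black bars are list medians and the dotted line is the median of all genes, -0.05; the calmodulin-like genes have a median of 2.55 and the plastid genome one of -0.64.

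The deepest decreases belonged to genes that carry only a locus number here. AT3G46190 had signals of 5.49, 5.93 and 5.51 in root DEX and 2.09, 2.13 and 2.32 in root DEX+CHX, a change of -3.46 (SE 0.25, adjusted p = 2.78e-06). AT4G03292 had a mean of 6.27 ± 0.29 in root DEX and signals of 3.03, 3.01 and 3.05 in root DEX+CHX, a change of -3.24. Both ended low with little spread. Since the files hold no detection calls, these end signals may be background, and the falls to them may then be too small. AT2G43890, AT5G41280, AT5G55770, AT2G41810 and AT4G24410 followed with changes from -2.91 to -2.07, and AT1G24996, AT1G05650, AT1G44050, AT2G43870 and AT5G25280 with -1.97 to -1.73. Single arrays stood out in some: for AT2G41810 root DEX+CHX replicate 3 read 6.45 against 4.68 and 4.97, and for AT1G05650 the 3 arrays read 7.59, 8.56 and 9.46. The call of AT1G05650 was lost without root DEX+CHX replicate 1 (the highest adjusted p was 0.0531 with limma).

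Among nuclear genes with a symbol, LTI30, Cpn60beta4 and ABR1 had the largest decreases. Cpn60beta4, a subunit of the chloroplast chaperonin, helps to fold a protein of the plastid NADH dehydrogenase-like complex. Its signals were 5.13, 4.88 and 5.07 in root DEX and 3.32, 3.41 and 3.40 in root DEX+CHX, a change of -1.65 (SE 0.13, adjusted p = 5.08e-06). ATU2AF65A, a large subunit of the splicing factor U2AF, fell by 1.10 on the log2 scale from 8.50, 8.38 and 8.65. CHX16, a cation exchanger whose symbol has nothing to do with cycloheximide, fell by 1.00 on the log2 scale, and MIR162A, the precursor of a microRNA that targets DCL1, by 0.95. These 4 were picked with their values in view, for being among the largest decreases of nuclear genes with a symbol. AGL42, a MADS box gene active in the root, fell by 0.99 on the log2 scale, whereas AGL93 and AGL65 of the same family rose by 2.40 and 1.86. Of 64 MADS box genes 2 rose and 5 fell, smaller shares than the 15.2% and 13.8% of all genes, with a median of 0.02. The balance turned to 7 higher and 3 lower with equal array medians and to 7 and 4 with quantile normalization.

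Transcripts of the plastid genome were lower almost throughout. Of 63 plastid-encoded genes 61 fell and none rose, against 13.8% lower over all genes, with a median of -0.64. All 63 changes were below 0, from -1.48 to -0.24. Genes of the NADH dehydrogenase-like complex, which carries electrons around photosystem I, had the lowest median of the plastid groups: all 10 passed, with -0.82. ndhC lay at 9.89, 9.94 and 9.92 in root DEX and at 8.38, 8.40 and 8.55 in root DEX+CHX, a change of -1.48 (SE 0.10, adjusted p = 2e-06). ndhK and ndhJ, which are transcribed together with it, had changes of -1.38 and -0.93. Cytochrome assembly gene ccsA had a change of -1.23 and rps16, for a ribosomal protein, one of -1.08.

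The 4 genes of the plastid RNA polymerase had a median of -0.79 and the 7 small-subunit ribosomal protein genes one of -0.71. Photosystem II genes had a median of -0.57 over 13, with psbM and psbT not past the test (changes of -0.75 and -0.62, adjusted p = 0.0609 and 0.258). Photosystem I, cytochrome b6f and ATP synthase genes had medians of -0.50, -0.57 and -0.49. The count depends on the shift in array medians: with equal medians 44 of 63 fell, all 10 of the NADH dehydrogenase-like complex among them, and with quantile normalization 54 fell. No plastid gene rose under any of these scalings.

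Mitochondrial transcripts were lower as well. Of 16 mitochondrion-encoded genes 13 fell and none rose, with a median of -0.39, and ccb382 and ccb203 for cytochrome c maturation had changes of -0.69 and -0.60. matR, a maturase, had a change of -0.60. With equal array medians 4 fell and 2 of the 16 changes lay above 0, and with quantile normalization 10 fell.

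**Figure D3:**
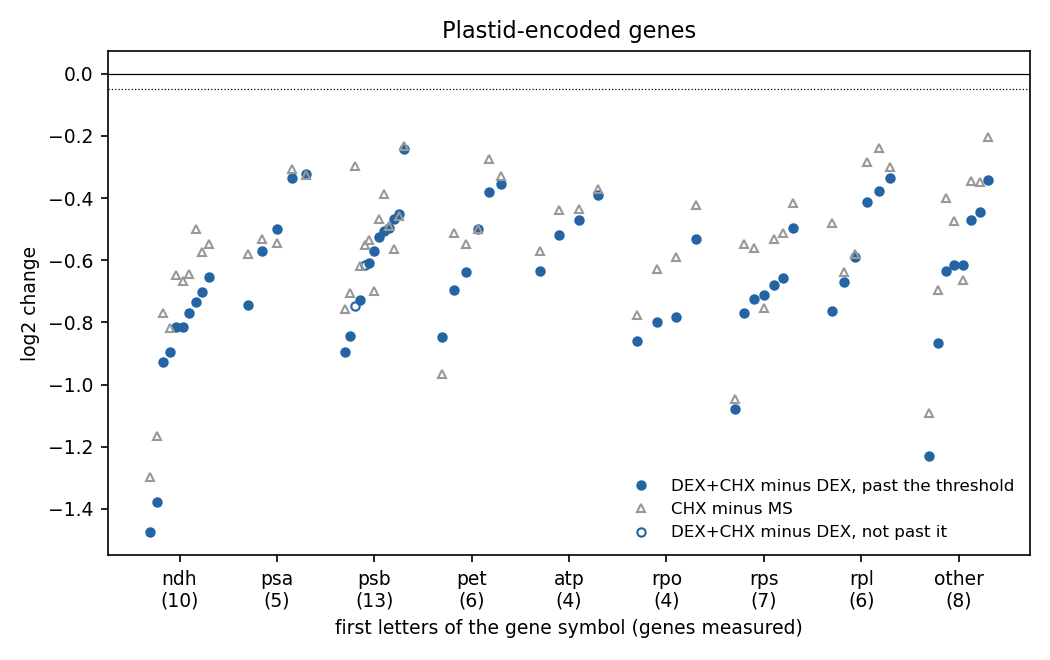
Log2 changes (vertical axis) of the 63 plastid-encoded genes, grouped by the letters of their symbol (horizontal axis): blue circles are root DEX+CHX against root DEX, filled where past the test, and grey triangles root CHX against root MS. The ndh genes reach -1.48 and no point lies above 0; the dotted line is the median of all genes, -0.05.

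LHW, AT4G38650 and AT2G28510 were looked at singly. LHW, the bHLH partner of TMO5, lay at 8.08, 8.09 and 8.08 in root DEX and at 7.88, 7.93 and 7.83 in root DEX+CHX, a change of -0.20 that did not pass (95% interval -0.41 to 0.02, adjusted p = 0.146). The groups did not overlap, but the whole difference is smaller than the shift of array medians. AT4G38650 was picked because it is raised by DEX on these same root DEX arrays. It lay at 6.72, 6.32 and 6.08 in root DEX and at 5.91, 5.87 and 5.79 in root DEX+CHX, a change of -0.52 (95% interval -0.99 to -0.05, adjusted p = 0.0872), while root MS lay at 4.53 to 5.01. Since it was picked for a high signal on the root DEX arrays, this change is a description only. AT2G28510 rose under cycloheximide from 9.74, 9.65 and 9.40 to 10.64, 10.42 and 10.29, a change of 0.85 (SE 0.14, adjusted p = 0.00114). It was picked as a gene that the study or the DEX comparisons turn on, with earlier results known. Its change is therefore a description only as well.

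Cycloheximide without DEX was measured on arrays that the comparison above does not use. In root CHX against root MS 4253 genes (25.7%) were called, 2218 (13.4%) higher and 2035 (12.3%) lower, of which 881 (5.32%) and 76 (0.459%) changed at least 2-fold. Over all features 11546 (30.1%) were called. Of the genes called higher with DEX present, 1959 were also called higher without it, which is 77.8% of the one set and 88.3% of the other. For lower calls the number was 1575, or 68.8% and 77.4%, and 2 genes were called in opposite directions. With each comparison fitted on only its own 6 arrays, 1683 genes were called higher in both (75.8% and 87.6%). In those fits 1007 genes were called lower in both, or 55.7% and 72.1%. All 1044 genes that changed at least 2-fold with DEX present had a change of the same sign without DEX. Across the 16548 genes, which are not independent replicates, the changes correlated with r = 0.948.

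**Figure D4:**
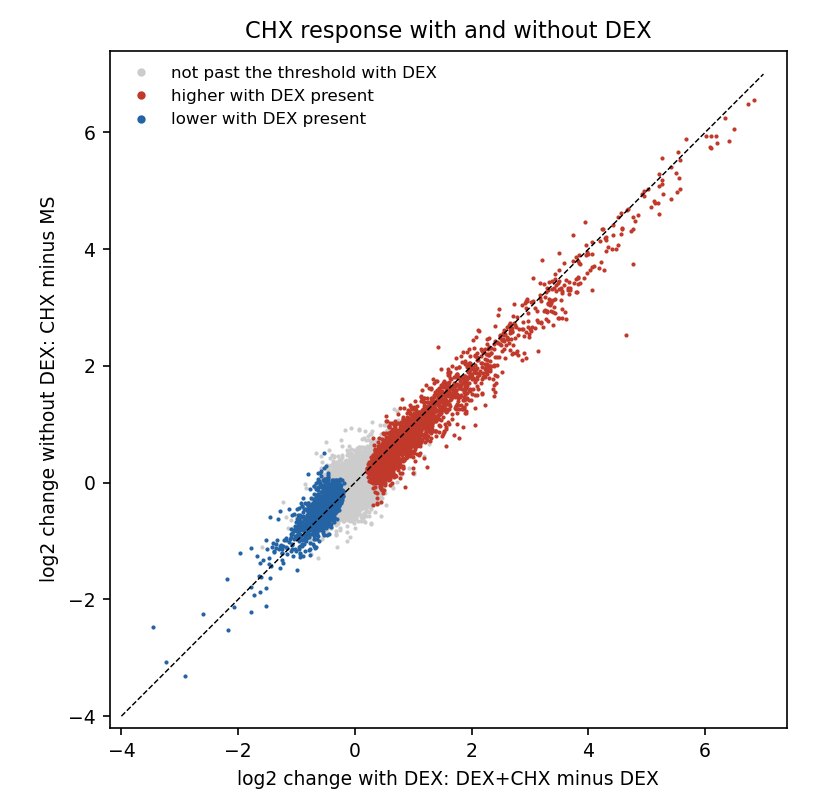
Log2 change on addition of cycloheximide with DEX present (horizontal axis, root DEX+CHX minus root DEX) and without DEX (vertical axis, root CHX minus root MS), each point 1 of 16548 genes, red and blue where called higher and lower with DEX present. Points follow the dashed line of equal change, with r = 0.948, and FAMT stands below it at 4.65 and 2.52.

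No difference between the responses with and without DEX passed its own test. The interaction had 0 calls in limma over 38408 features (0%), with a smallest adjusted p of 0.644. Of these features 1684 had an unadjusted p under 0.05 with limma. That is a smaller share than this threshold passes on average when no feature differs. The same genes can be set side by side: GH3.3 changed by 4.76 with DEX and 3.75 without, LBD16 by 2.39 and 1.85, IAA29 by 2.06 and 1.29, and LTI30 by -1.67 and -1.26. Of the 815 genes at least 2-fold higher in both comparisons, 555 (68.1%) had the larger change with DEX present, with a median difference of 0.11. Over all genes the median difference was 0.006. Genes on the same arrays are not independent replicates, and the source of this share was not tested. For FAMT the changes were 4.65 and 2.52, with an interaction of 2.12 (95% interval -0.31 to 4.56), an interval that its uneven arrays make wide. WRKY41 changed by 5.27 and 5.56, EXLA3 by 4.67 and 4.68 and CML23 by 3.79 and 3.87. AT3G46190, the gene with the largest decrease, changed by -3.46 with DEX and -2.48 without. Its interaction was -0.98 (95% interval -1.76 to -0.21, adjusted p = 0.999 with limma), and the interval is not adjusted for the number of features.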

How the data were processed

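The 18 arrays are Affymetrix gene arrays hybridised with biotin-labelled whole-transcript cDNA from total RNA, per the labels' protocols. The deposited values are log2 signals made by the authors with RMA, per the submitters' processing notes. The RMA version is not given in the sources used here, nor is the set of arrays it was run on. No array or column was left out of the files, and the 6 arrays of sorted cells entered only an alternative fit. For arrays, their number limits the precision.

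From these values limma 3.58.1 in R 4.3.3 fitted 1 mean per group over the 12 root arrays (median residual SD 0.190), with moderated variances, a two-sided test and Benjamini-Hochberg adjustment over all 38408 features. Called means an adjusted p under 0.05. Controls could not be told from other features, so all were tested. Features were named through the platform's annotation and updated by Entrez identifier to TAIR10.1, which linked 16574 of the 16722 features of exactly 1 gene; 759 have several genes and 20927 none. Of the features, 7132 share all values with another one and 32879 are distinct. The fit was tested on simulated data. Sequences were not used here, and promoter motifs were not analysed.

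The comparison, the 59 gene lists and the alternatives were chosen with earlier results of these data known. Of the lists, 43 were written at first, 6 of these were then corrected and 16 added after seeing the values; 43 have at least 2 measured genes, 4 have 1 and 12 have none. Named are, of the called genes whose groups do not overlap, the 15 that rose and the 12 that fell most, up to 4 called members per list, the 3 interaction genes of smallest p in each direction, LHW, AT2G28510 and AT4G38650, and, chosen after seeing the values, the 16 largest changes in each direction among genes with a symbol (for decreases, nuclear ones) and others where stated. Lists are described by counts, most also by their median, against the shares and median of all genes, with no test. Alternatives were equal array medians, quantile normalization over the root arrays, leaving out features under the lower quartile of mean signal, only features of 1 gene, identical features once, only the 6 arrays compared, all 18 arrays, array weights, limma's options for a trend and for robust variances, a block for the repeat number, and leaving out each array.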

Additional observations from a re-analysis of the deposited data

Results flagged for a closer look

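In 5 genes the 3 arrays with cycloheximide lay on opposite sides of their controls depending on DEX: the change in root DEX+CHX against root DEX had one sign on every array and the change in root CHX against root MS the other. The difference between the changes, with DEX minus without DEX, was 0.97 for AT1G27270, 0.74 for CML43, 0.74 for AT3G61870, -0.51 for AT5G17440 and -1.05 for AT3G04855. CML43, a calmodulin-like gene, had signals of 4.80, 5.02 and 4.85 in root DEX and 5.30, 5.25 and 5.23 in root DEX+CHX, but of 5.22, 5.35 and 5.15 in root MS and 4.91, 4.94 and 4.75 in root CHX. The interaction test of limma passed for none of them (smallest adjusted p over all features 0.644), so that these differences are not shown to exceed the spread between arrays.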

How the results depend on the processing

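The 12935 features called in root DEX+CHX against root DEX became 10583 to 11403 when 1 array was left out (higher 3829 to 4067, lower 6754 to 7408), and the 4628 called at 2-fold or more became 4360 to 4603 (higher 1736 to 1890, lower 2574 to 2803). Root CHX against root MS had 11546 calls and 8873 to 10307 without 1 array, the interaction 0 in all 12 such fits, the listed genes 266 and 223 to 240, and the named genes 172 and 155 to 163. Some counts moved by over 1.5 times. Equal array medians gave 7212 higher and 4213 lower, which follows from the 0.22 added to each change. Keeping features of exactly 1 gene, which removes the rest of the table by construction, gave 4980 calls (2590 higher, 2390 lower), 1059 at 2-fold (976 higher, 83 lower), 4412 in root CHX against root MS and 3648 called alike in both comparisons against 9483. Counting identical features once gave 2640 at 2-fold, 846 of them lower, and asking for 2-fold in both comparisons left 3489 called alike. Whether repeat numbers pair the arrays is not known, since the labels do not say what they mark. Deviations of same-numbered root DEX and root DEX+CHX arrays correlated at 0.230, 0.002 and 0.268. In these groups replicates 1 and 3 correlated best with their own number and replicate 2 did not. Between root CHX and root DEX+CHX the same-numbered values were 0.120, 0.061 and -0.304. With the replicate block 12538 features were called, 4307 higher and 8231 lower. Changes near 0 that were not called could turn in sign, as AT1G19550 did between -0.13 and 0.01 on omitting 1 array. No named gene was called in the opposite direction under any alternative run. Of 2845 such values 137 lost the call, most with equal medians (23 genes) or without 1 array (9 to 17 genes), and 6 gained it, AT4G38650 with the block among them; 136 of 1376 list counts moved by over 1.5 times, the cause of which was not tested. Promoter motifs were not run. Low signals lie near background, and no detection calls were used.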

Other observations

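The size of the cycloheximide response differed between arrays of one group. Among the 174 genes at least 8-fold higher in root DEX+CHX, replicate 1 gave the highest signal of its group in 116 (66.7%) and replicate 3 the lowest in 100 (57.5%). Over all genes these shares were 30.8% and 30.9%. WRKY41, ORA47, BHLH92, FAMT and AT1G06135 are among the genes with replicate 3 lowest. In root CHX replicate 3 was highest in 105 (60.3%) and replicate 2 lowest in 112 (64.4%). The root CHX arrays entered the choice of these genes only through the shared estimate of spread.

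Neighbouring genes appear among the strongest increases. In the order of genes of TAIR10.1, 10 of the 72 genes at least 16-fold higher stand next to another of the set with at most 1 gene between, as AT5G41740 and AT5G41750, AT4G27654 and AT4G27657, AT5G52750 and AT5G52760, AT1G51913 and AT1G51915, and AT2G20142 and AT2G20150. At 8-fold the number is 37 of 174, and among genes at least 2-fold lower 13 of 74. How many neighbours other sets of that size hold was not tested, nor was shared signal between similar neighbours.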
